A study of Mus musculus with 2 samples.

Results

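The Polycomb and trithorax group genes examined here were 38 genes chosen by symbol, and all 38 were found among the 23183 genes of the deposited tables. Of these, 10 encode subunits of the Polycomb repressive complex PRC2, 15 encode subunits of PRC1 and 13 belong to the MLL/COMPASS side, with menin and the H3K27 demethylases *Kdm6a* and *Kdm6b* counted among the last. PRC2 places methyl groups on lysine K27 of histone H3 (H3K27), and PRC1 attaches ubiquitin to histone H2A and, through its CBX subunits, can bind methylated H3K27. Both complexes keep developmental genes silent and are known as repressors of the INK4 locus. The MLL/COMPASS complexes of the trithorax group methylate lysine K4 of histone H3 (H3K4) at promoters and enhancers and oppose Polycomb silencing. In the work behind these libraries, MLL proteins are named as partners of Runx3 at the restriction point, the step at which a cell commits to divide.

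mRNA sequencing was performed on KPR- cells and KPRrestored cells. KPR- is an immortalized mouse line from a lung cancer of KPR L/F-TAM(-) mice. Young adult animals carried a Tomato reporter, FlpERT2, p53 flox/flox and K-Ras LSL-G12D/+ together with Runx3 flox/FSF, and inhaled Ad-Cre, an adenovirus that delivers Cre to the cells it infects. In these cells 4-hydroxytamoxifen (4-OHT) activates FlpERT2, which removes a Frt-Stop-Frt cassette from *Runx3* and yields KPRrestored cells. By this design both groups carry activated K-Ras, deleted p53 and 1 *Runx3* allele inactivated by Cre, and are meant to differ in the state of the other *Runx3* allele. The labels place the libraries at 0 h (KPR-, *Runx3* -/-) and 16 h (KPRrestored, *Runx3* -/+) and list 1 μM 4-OHT for both. Each group is 1 library of 1 line, so no difference below has a replicate check, and *Runx3* restoration, 4-OHT and hours in culture cannot be told apart.

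The values are FPKM, fragment numbers scaled to transcript length and library size, and the depth behind them was estimated as 21.8 M fragments in KPR- and 22.4 M in KPRrestored from the steps of the low values. *Runx3* had 0.348 FPKM in KPR- and 0.349 FPKM in KPRrestored, from about 28 and 29 fragments, with a log2 difference of 0.0074 and a 95% counting interval of -0.79 to 0.81. The *Runx3* level thus did not separate the libraries and does not check their labels, so each direction below is that of the library labelled KPRrestored against the library labelled KPR-. *Epcam*, *Cdh1*, *Krt8* and *Krt18*, which mark epithelium, ranged from 91.6 to 1931 FPKM, and *Vim*, a mesenchymal marker, had 1777 and 1464 FPKM. Alveolar type II markers were absent or nearly so, with *Sftpc*, *Sftpb*, *Sftpa1* and *Lamp3* listed at 0 in both libraries and *Nkx2-1* at 0.0444 and 0.0216 FPKM. Of the immune and endothelial markers *Cd3e* was at 0 in both libraries, *Ptprc* and *Cdh5* were at 0 in KPR- and at 0.00892 and 0.141 FPKM in KPRrestored, *Pecam1* was at 0.0601 and 0.0292 FPKM, and *Cd68*, a lysosomal protein used as a macrophage marker, went from 3.08 to 6.78 FPKM.

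Transcripts of all 38 genes were present in both libraries, and few of them differed by a large amount. All 38 genes passed the filter on low values, a mean of 1 FPKM or more over both libraries, with *Kmt2c* lowest at 3.20 FPKM and the highest *Rbbp7* with 175 FPKM. The difference of a gene was taken as log2(FPKM + 0.005) in the library labelled KPRrestored minus that in KPR-, and a difference of 0.5 or more either way was called. Only *Kdm6b* was called higher and only *Phf19* was called lower, a call that was lost with a pseudocount of 1 (-0.45) or a filter at a mean of 5 FPKM. Together they are 5.26% of the 38 genes against 21.4% of the 11231 genes that passed this filter (12.1% higher and 9.29% lower). Among the 9785 genes that averaged 3 FPKM or more, a background chosen after the values were seen, 18.5% were called (10.7% higher and 7.82% lower). The median size of the differences was 0.26 for the 38 genes and 0.25 for all genes tested, so the typical size was close to that of other genes and only the large differences were fewer. In all, 33 of the 38 genes lay within 0.4 of 0. The like share of all genes is not given here, so this count cannot be set against other genes.

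**Figure D1:**
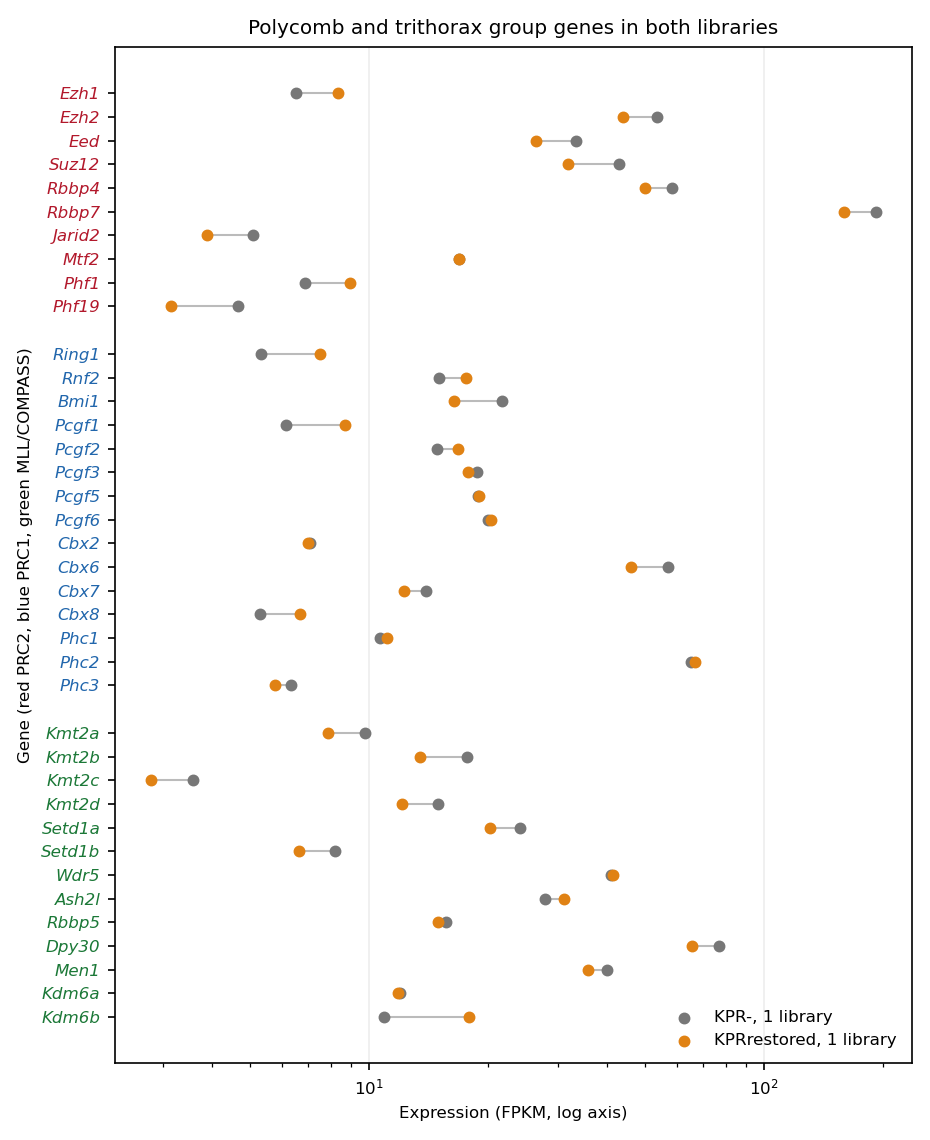
Expression of the 38 genes in FPKM (log axis), with 1 point per library, KPR- in grey and KPRrestored in orange, and gene names coloured by complex. The 2 points of most genes lie close together, from 3.59 and 2.80 FPKM for *Kmt2c* to 192 and 159 FPKM for *Rbbp7*.

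The 3 complexes differed in their medians. The median log2 difference was -0.28 over the 10 PRC2 genes, 0.025 over the 15 PRC1 genes and -0.23 over the 13 MLL/COMPASS genes, beside 0.0086 over all genes tested. With the trend over transcript length removed, the MLL/COMPASS median was -0.080, the PRC2 median -0.30 and the PRC1 median 0.059. Below 0 were 7 PRC2 genes, 6 PRC1 genes and 10 MLL/COMPASS genes, where 49.0% of all genes tested, and 49.1% of those averaging 3 FPKM or more, were below 0. Fragments behind each value were estimated from the depth and the longest transcript of a gene, and exact 95% intervals of the ratio were computed from them, which cover counting error only. With these the interval excluded 0 for 29 of the 38 genes, a share of 76.3% where 67.3% of the 11141 genes tested for which an interval could be computed (34.3% above and 33.0% below 0), and 70.1% of the 9716 of them averaging 3 FPKM or more, had such an interval. It lay below 0 for 7 PRC2, 5 PRC1 and 8 MLL/COMPASS genes and above 0 for 2, 5 and 2 genes. With the shortest coding transcript in place of the longest, the fragment numbers are smaller and 14 of the 38 intervals excluded 0. The like share of all genes is not given here, so this count cannot be set against other genes.

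**Figure D2:**
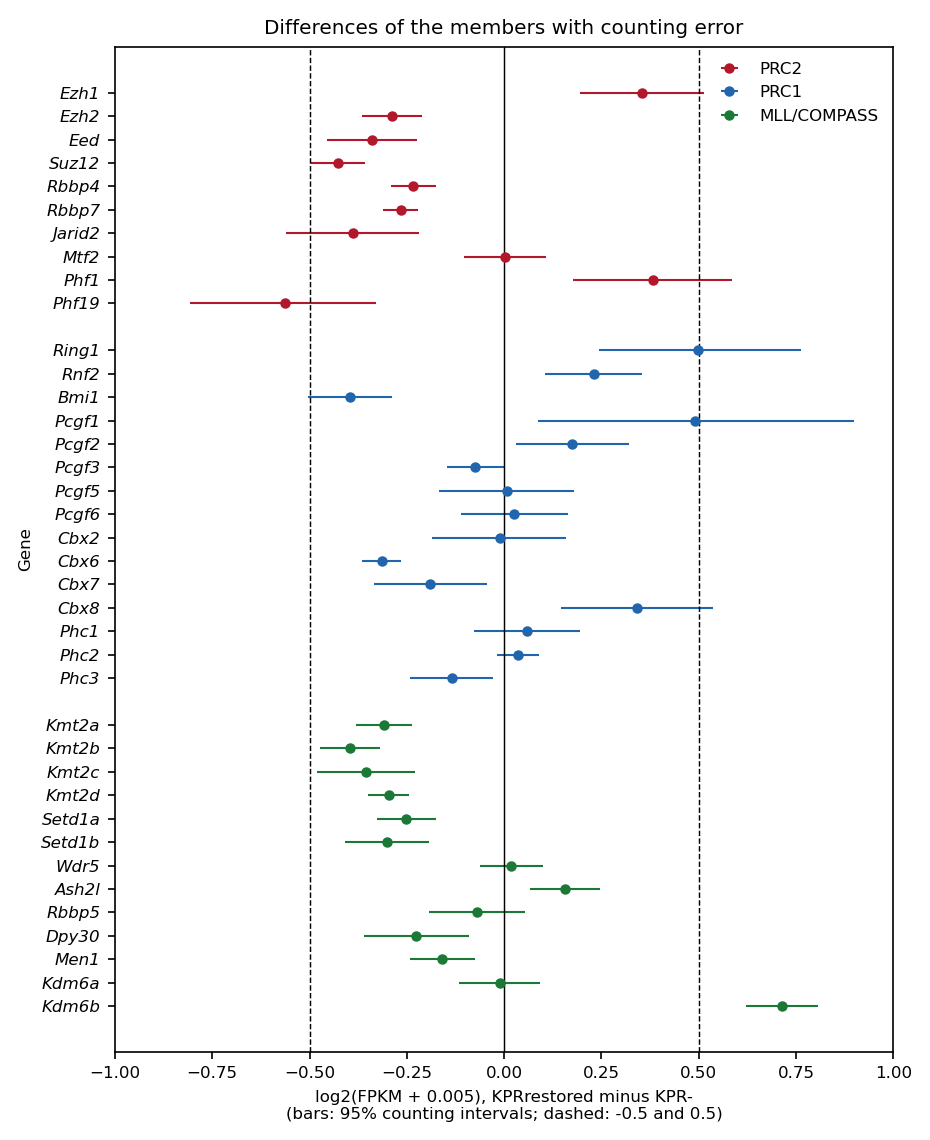
Difference of each gene as log2(FPKM + 0.005) in KPRrestored minus KPR- (points, 1 library per group), with 95% counting intervals as bars and dashed lines at -0.5 and 0.5. *Kdm6b* at 0.71 and *Phf19* at -0.56 are the points past the lines, and all 6 H3K4 methyltransferases lie between -0.40 and -0.25.

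In PRC2, 5 of the 6 core genes were lower in the library labelled KPRrestored and *Ezh1* was higher, each by less than 0.5. *Ezh2*, the main H3K27 methyltransferase of dividing cells (chromosome 6, 47530139 to 47595341, minus strand, GRCm38), had 53.5 FPKM in KPR- and 43.8 FPKM in KPRrestored. Its log2 difference was -0.29 with a counting interval of -0.36 to -0.21. *Ezh1*, the paralog with weaker catalytic activity that is typical of resting cells (chromosome 11, 101191115 to 101226463, minus strand), had 6.51 and 8.31 FPKM, a log2 difference of 0.35 with an interval of 0.19 to 0.51. The *Ezh1* difference exceeded that of *Ezh2* by 0.64, with an exact counting interval of 0.46 to 0.82. *Ezh2* remained the main form, and its share of the summed *Ezh1* and *Ezh2* FPKM was 89.2% in KPR- and 84.1% in KPRrestored.

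The other core subunits were lower as well. *Suz12*, the scaffold of the complex, had 42.9 and 31.9 FPKM and a log2 difference of -0.43 (interval -0.50 to -0.36). *Eed*, which binds methylated H3K27 and stimulates the enzyme, had 33.4 and 26.4 FPKM and a difference of -0.34. The histone-binding subunits *Rbbp4* and *Rbbp7*, which also serve in other chromatin complexes, had differences of -0.23 and -0.27, with *Rbbp7* the most abundant of all 38 transcripts at 192 and 159 FPKM (interval -0.31 to -0.22). Their ratio hardly moved, with *Rbbp7* at 3.28 times the FPKM of *Rbbp4* in KPR- and 3.20 times in KPRrestored. None of the 6 core genes reached 0.5, so the core as a whole stayed below the size that 21.4% of genes passed.

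The accessory subunits, which guide PRC2 to its sites, went different ways. *Phf19*, a Polycomb-like protein that reads methylated H3K36 (chromosome 2, 34893757 to 34914026, minus strand), fell from 4.66 to 3.15 FPKM. Its log2 difference was -0.56 with an interval of -0.81 to -0.33, from about 359 and 249 fragments, and with its shortest coding transcript the interval was -1.86 to 0.75. *Phf1*, a paralog of *Phf19*, had 6.86 and 8.94 FPKM, a difference of 0.38 with an interval of 0.18 to 0.59. Of the annotated exonic bases of *Phf1*, 39.3% overlap *Cuta* on the other strand, which had 60.2 and 57.4 FPKM, and whether the counting used strand is not given in the sources used here. *Mtf2*, the third Polycomb-like gene, had 16.9 FPKM in both libraries (difference 0.0021), and *Jarid2* had 5.08 and 3.88 FPKM (difference -0.39).

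Promoter sequences of these genes are shown because E2F and RUNX factors bear on cell cycle entry and on the study. Windows of 250 bases before to 50 bases after each RefSeq start (GRCm38.p6) were searched on both strands for the E2F letters TTTCCCGC, TTTCGCGC, TTTGCCGC and TTTGGCGC and for the RUNX letters TGTGGT and TGCGGT. Windows were found for 32 of the 38 genes, and *Pcgf1*, *Cbx2*, *Kmt2b*, *Setd1b*, *Ash2l* and *Kdm6b* had no entry. E2F letters stood in a window of *Ezh2*, *Suz12* and *Phf19*, which is 3 of the 10 PRC2 genes, 0 of 13 PRC1 genes and 0 of 9 MLL/COMPASS genes. Over all promoters they stood in a window of 704 of 27025 genes (2.6%). Counted by window, they stood in 3 of 12 PRC2 windows and in 2.27% of all 32851 windows. Among the 5097 windows with at least 27 CpG, the median of the PRC2 windows, the share was 5.18%. RUNX letters stood in a window of 11 of the 32 genes (34.4%), against 6764 of the 27025 genes with a window overall. The stretches are written 5′ to 3′ on the strand of the gene, and capitals mark the E2F and RUNX letters or their reverse complement. For *Ezh2* a short stretch around the start (chr6:47595013-47595036, minus strand) is given, in which the E2F letters begin 4 bases into the transcript. *Suz12* (chr11:79992856-79993105, plus strand) and *Ezh1* (chr11:101226464-101226713, minus strand) are given from base -250 to -1, and *Phf19* (chr2:34914018-34914226, minus strand) from base -250 to -42.
Ezh2: gttgctgcgTTTGGCGCtcggtcc
Suz12: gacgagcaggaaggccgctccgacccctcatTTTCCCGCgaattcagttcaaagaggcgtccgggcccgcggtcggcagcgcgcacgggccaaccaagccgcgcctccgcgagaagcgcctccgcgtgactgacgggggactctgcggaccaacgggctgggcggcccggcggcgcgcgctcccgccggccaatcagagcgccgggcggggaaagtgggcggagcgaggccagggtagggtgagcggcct
Phf19: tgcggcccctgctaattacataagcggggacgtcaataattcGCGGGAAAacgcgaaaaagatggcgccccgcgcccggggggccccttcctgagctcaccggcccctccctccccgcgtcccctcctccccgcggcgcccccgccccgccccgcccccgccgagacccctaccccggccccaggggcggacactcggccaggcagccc
Ezh1: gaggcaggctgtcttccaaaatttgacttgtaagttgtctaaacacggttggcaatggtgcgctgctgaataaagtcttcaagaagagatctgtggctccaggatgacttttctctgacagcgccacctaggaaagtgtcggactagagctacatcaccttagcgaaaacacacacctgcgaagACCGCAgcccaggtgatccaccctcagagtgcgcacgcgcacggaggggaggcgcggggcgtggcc
The 3 genes with E2F letters were all lower in the library labelled KPRrestored, at -0.29, -0.43 and -0.56, and so were *Eed*, *Rbbp4*, *Rbbp7* and *Jarid2*, whose windows hold none of these E2F letters. RUNX letters stood in a window of 5 of the 10 PRC2 genes, 3 of 13 PRC1 genes and 3 of 9 MLL/COMPASS genes. *Ezh1*, which was higher, holds them in reverse complement, beginning at base -66. *Ezh2*, which was lower, also holds RUNX letters, beginning at bases -250 and -217 from its RefSeq start. The annotated span of *Ezh2* reaches past this window, to base 47595341, so these letters lie inside that span. The other PRC2 genes with RUNX letters were *Rbbp4* and *Jarid2*, both lower, and *Mtf2*, at 0.0021. Counted by window, RUNX letters stood in 5 of 12 PRC2, 3 of 17 PRC1 and 6 of 14 MLL/COMPASS windows. They stood in 22.4% of all windows and in 18.8% of the windows with at least 27 CpG. A match is a description of letters and not of a bound site.

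In PRC1 0 of the 15 genes were called, beside 21.4% of all genes tested, and higher and lower members balanced. The E3 ligases that ubiquitinate H2A were both higher: *Rnf2*, the main one, had 15.0 and 17.6 FPKM (difference 0.23, interval 0.11 to 0.35), and *Ring1* had 5.31 and 7.50 FPKM (difference 0.499, interval 0.24 to 0.76), just under the threshold. With the shortest coding transcript the interval of *Rnf2* was -0.19 to 0.65 and included 0, and that of *Ring1* was the same. The *Ring1* difference exceeded that of *Rnf2* by 0.27, with an interval of -0.016 to 0.56 that includes 0. *Rnf2* supplied 73.9% of their summed FPKM in KPR- and 70.1% in KPRrestored.

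PCGF proteins pair with the ligases and define which PRC1 is made. *Bmi1*, which with *Pcgf2* forms the canonical complex and is a classical repressor of the INK4 locus, had 21.6 and 16.4 FPKM. Its log2 difference of -0.40 (interval -0.51 to -0.29) was the lowest of the 15 PRC1 genes, and the interval with its shortest coding transcript was -0.92 to 0.14. *Pcgf2* had 14.8 and 16.7 FPKM (difference 0.18) and was thus level with *Bmi1* in KPRrestored. The variant-complex genes *Pcgf3*, *Pcgf5* and *Pcgf6* lay within 0.1 of 0, with 17.8 to 20.3 FPKM, while *Pcgf1* had 6.17 and 8.67 FPKM (difference 0.49) from about 88 and 127 fragments on a transcript of 866 bases. The summed FPKM of the 6 PCGF genes was 100.3 in KPR- and 98.97 in KPRrestored, and the share of *Bmi1* in it was 21.6% and 16.6%.

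CBX proteins read methylated H3K27 for canonical PRC1. *Cbx6* was the most abundant, with 57.1 and 45.9 FPKM and a log2 difference of -0.31 (interval -0.36 to -0.26). *Cbx7* had 13.9 and 12.2 FPKM (difference -0.19) and *Cbx2* had 7.07 and 7.01 FPKM (difference -0.012). *Cbx8*, known for silencing the INK4 locus together with *Bmi1*, had 5.28 and 6.69 FPKM (difference 0.34, interval 0.15 to 0.54). Of the summed FPKM of these 4 genes, *Cbx6* had a share of 68.5% in KPR- and 63.9% in KPRrestored. The PHC genes, whose proteins polymerize and compact chromatin, lay nearer to 0. *Phc2*, the most abundant of the 15 PRC1 genes, had 65.1 and 66.8 FPKM (difference 0.036, interval -0.018 to 0.091), *Phc1* had 10.6 and 11.1 FPKM, and *Phc3* had 6.32 and 5.76 FPKM (difference -0.13, interval -0.24 to -0.029).

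**Figure D3:**
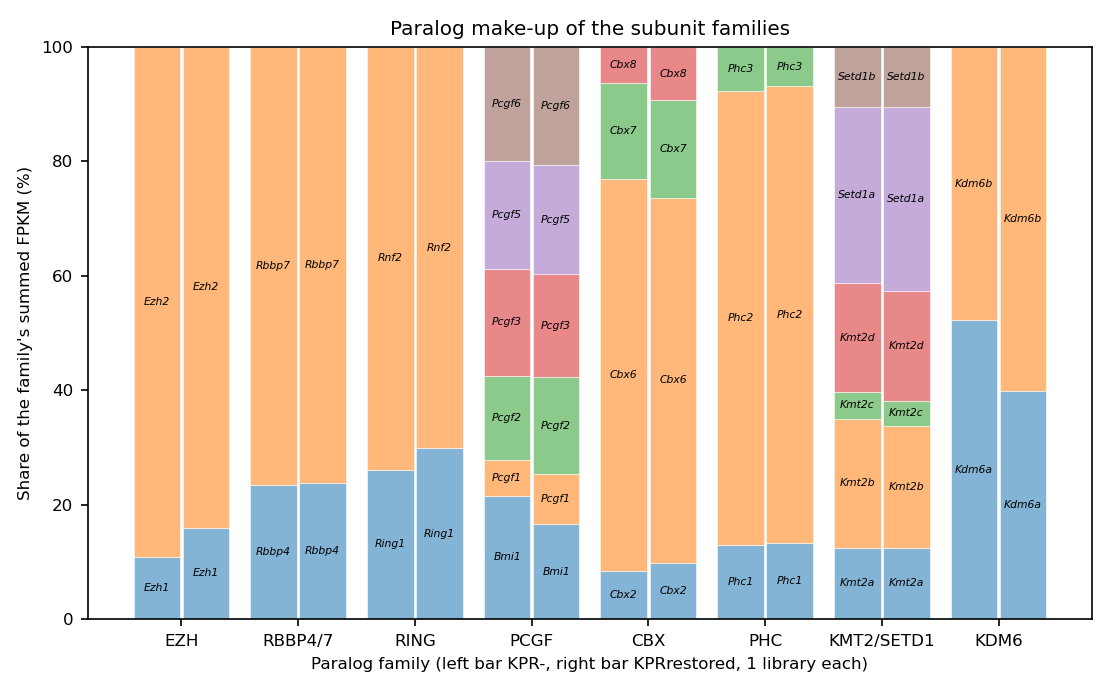
Share of each paralog in the summed FPKM of its family (%), with KPR- as the left and KPRrestored as the right bar of a pair, 1 library each. The *Ezh1* share goes from 10.8% to 15.9%, the *Bmi1* share from 21.6% to 16.6% and the *Kdm6b* share from 47.7% to 60.2%, while the *Kmt2a* share is 12.5% in both libraries.

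On the MLL/COMPASS side all 6 H3K4 methyltransferases were lower in the library labelled KPRrestored, with differences from -0.40 to -0.25. *Kmt2b*, which with *Kmt2a* acts at promoters, had 17.7 and 13.4 FPKM and the lowest difference, -0.40, and *Setd1a*, a main source of promoter H3K4 trimethylation, had 24.1 and 20.3 FPKM and the difference nearest to 0, -0.25. *Kmt2a* had 9.75 and 7.87 FPKM (difference -0.31, interval -0.38 to -0.24). *Kmt2d*, which with *Kmt2c* monomethylates H3K4 at enhancers, had 14.9 and 12.1 FPKM (difference -0.30, interval -0.35 to -0.24). *Kmt2c* and *Setd1b* had differences of -0.36 and -0.30. Summed over the 6 genes, FPKM went from 78.2 to 63.1, a log2 ratio of -0.31. With the shortest coding transcripts, the intervals of *Kmt2b* and *Kmt2c* excluded 0 and those of the other 4 included it. Of the annotated exonic bases of *Setd1a*, 51.8% are shared with the gene model Gm49388 on the same strand.

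These 6 genes have long transcripts, from 5927 bases for *Setd1a* to 19823 bases for *Kmt2d*, and long transcripts were lower as a class. The 1421 genes tested with transcripts of at least 5927 bases had a median log2 difference of -0.18, and 70.6% of them were below 0. Of these long genes 21.5% were called, 5.35% higher and 16.2% lower, while 0 of the 6 methyltransferases were. The median of the genes nearest in length was -0.27 for *Kmt2a*, *Kmt2c* and *Kmt2d*, with quartiles of -0.44 and -0.061. Relative to that local median *Kmt2d* stood at -0.022, *Kmt2a* at -0.034, *Kmt2c* at -0.080, *Setd1b* at -0.10, *Setd1a* at -0.12 and *Kmt2b* at -0.18. The methyltransferases thus lay near the level of other transcripts of their length. The part of transcript length in their differences was not tested. The PRC2 core genes, with transcripts of 2067 to 4407 bases, kept their distance: relative to their local medians, *Eed* stood at -0.45, *Ezh2* at -0.41, *Suz12* at -0.38, *Rbbp7* at -0.35 and *Rbbp4* at -0.20, and *Ezh1* at 0.31.

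**Figure D4:**
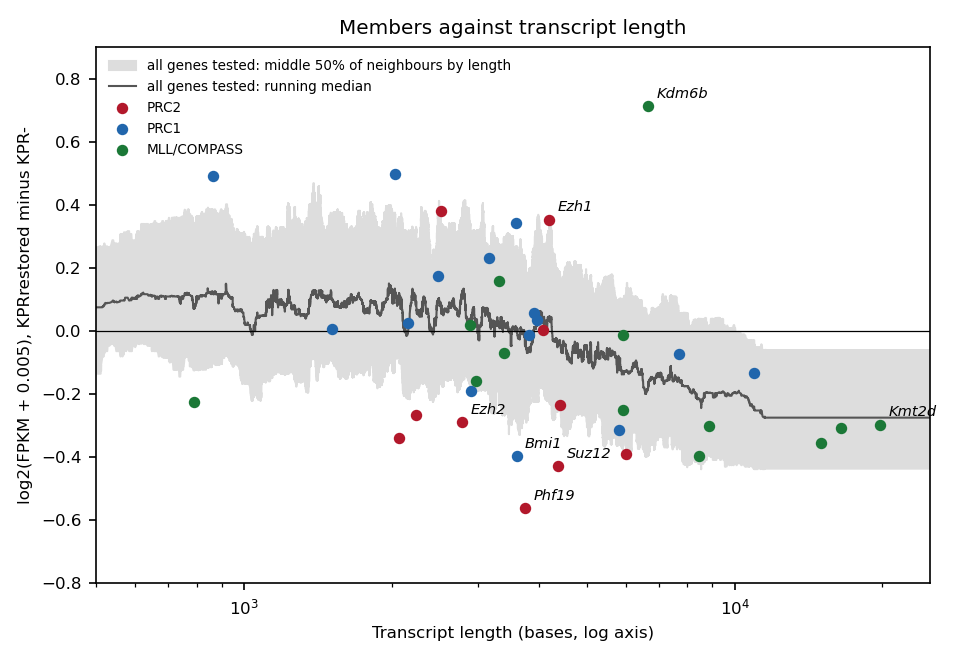
Difference as log2(FPKM + 0.005) in KPRrestored minus KPR- against transcript length in bases (log axis) for the 38 genes, coloured by complex, with the running median (line) and the middle 50% (grey band) of genes of like length for all genes tested. The line falls to -0.27 for the longest transcripts, where the last genes share 1 window, and *Kmt2d* at -0.30 lies on it, while *Kdm6b* at 0.71 lies above the band.

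The subunits shared by all COMPASS complexes, which activate the methyltransferases, did not move as a block. *Wdr5* had 40.8 and 41.3 FPKM (difference 0.018), *Rbbp5* had 15.7 and 14.9 FPKM (difference -0.069), and the intervals of both included 0. *Ash2l* had 27.9 and 31.1 FPKM (difference 0.16, interval 0.068 to 0.25). *Dpy30*, the most abundant of the 13 MLL/COMPASS genes, had 76.8 and 65.6 FPKM (difference -0.23, interval -0.36 to -0.091) on a transcript of 789 bases. *Men1*, which encodes menin, the tether of KMT2A and KMT2B to chromatin, had 40.1 and 35.9 FPKM (difference -0.16).

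The H3K27 demethylases, which remove the mark that PRC2 makes, split. *Kdm6b*, a stimulus-inducible enzyme also called JMJD3 (chromosome 11, 69398508 to 69413675, minus strand), rose from 10.9 to 17.9 FPKM, which is 1.64 times the level in KPR-. Its log2 difference of 0.71 (interval 0.62 to 0.81, about 1534 and 2584 fragments) was the largest of the 38 genes in size, and the interval was the same with its shortest coding transcript. *Kdm6a*, a subunit of the KMT2C and KMT2D complexes, had 11.9 FPKM in both libraries (difference -0.012, interval -0.12 to 0.093). The *Kdm6b* difference exceeded that of *Kdm6a* by 0.72, with an interval of 0.59 to 0.86. *Kdm6b* thus passed *Kdm6a*, with 47.7% of their summed FPKM in KPR- and 60.2% in KPRrestored. The genes nearest to *Kdm6b* in transcript length had a median difference of -0.18, so its distance from them was 0.89. Of its exonic bases, 4.11% overlap the antisense gene *Kdm6bos*.

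Other genes of the pathway were taken from lists of further subunits and of opposing enzymes. Of 57 such genes, 53 passed the filter, and 2 of these were higher and 2 lower by 0.5 or more, or 7.55% beside 21.4% of all genes tested. Their median size of difference was 0.18. In the list of further PRC1 genes, *Scmh1*, a Polycomb partner with a SAM domain, rose from 4.22 to 7.27 FPKM (difference 0.78), and *Fbrsl1* was next with 5.37 and 7.19 FPKM (difference 0.42), while the lowest were *Cbx3* and *E2f6* at -0.43 and -0.39. Of the further PRC2 genes, *Lcor* fell from 3.35 to 1.97 FPKM (difference -0.76), and *Epop*, listed under an older symbol, had 9.89 and 12.6 FPKM (difference 0.35). *Aebp2*, the usual partner of *Jarid2*, had a difference of -0.26.

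On the H3K4 side, *Paxip1*, a subunit of the KMT2C and KMT2D complexes, fell from 13.8 to 8.69 FPKM (difference -0.67). *Psip1*, which links menin and KMT2A to chromatin, had 61.6 and 45.0 FPKM (difference -0.45). The 11 further COMPASS genes had a median of -0.16, with 8 of them below 0, where 49.0% of all genes tested were below 0. Of the 5 H3K4 demethylases, *Kdm5b* rose from 11.4 to 16.2 FPKM (difference 0.51), a call lost with a pseudocount of 1 and with upper quartile scaling, and the median was 0.060. The PR-DUB list, whose core *Bap1* removes ubiquitin from H2A, had 10 expressed members of 11 with 0 called and a median of -0.10. The 7 H3K36 methyltransferases and other trithorax genes also had 0 called, with *Nsd2*, listed under an older symbol, lowest at -0.45 and *Kmt2e* highest at 0.12. Beside these counts, 21.4% of all genes tested were called.

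**Figure D5:**
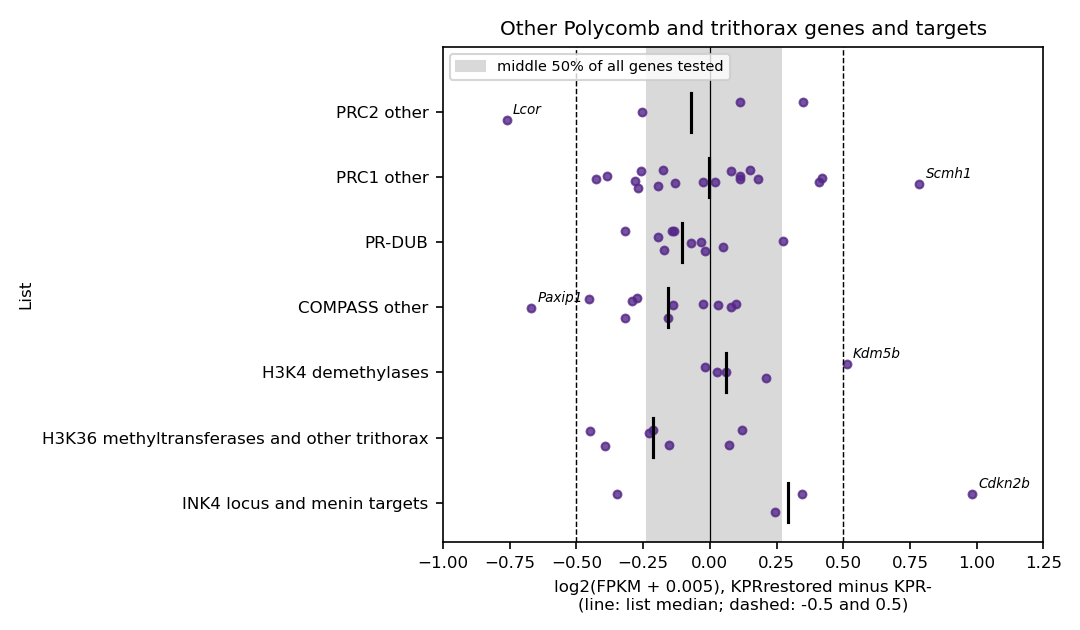
Differences of further Polycomb and trithorax genes and of 4 target genes past the filter on low values, as log2(FPKM + 0.005) in KPRrestored minus KPR-, with 1 point per gene, a black line at each list's median, dashed lines at -0.5 and 0.5 and the middle 50% of all genes tested in grey (-0.23 to 0.27). The labelled genes are those past a dashed line, with *Cdkn2b* farthest at 0.98.

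Genes known as Polycomb targets were looked at last. *Hox* genes, the classical targets of both groups, were low in both libraries. Of 39 *Hox* genes 0 passed the filter, 17 were listed at 0 in both libraries and 18 were above 0 in both, and the highest, *Hoxb6*, had 1.15 and 0.680 FPKM from about 28 and 17 fragments. With no filter, 4 were higher and 7 lower by 0.5 or more, some of them from about 1 fragment in 1 library and 0 in the other. Without the filter, 13.8% of all 23183 genes were higher and 12.9% lower by that size. Their summed FPKM was 5.12 in KPR- and 5.16 in KPRrestored, from about 193 fragments (exact Poisson interval 167 to 222) and 205 fragments (178 to 235), with a log2 ratio between -0.24 and 0.34. At the INK4 locus, which *Bmi1* and *Cbx8* are known to repress, *Cdkn2b* rose from 33.7 to 66.6 FPKM (difference 0.98, interval 0.87 to 1.10). Of all genes tested, 12.1% were called higher. *Bmi1* was lower (-0.40) and *Cbx8* higher (0.34), and their part in the *Cdkn2b* difference was not tested. At the same locus *Cdkn2a* had 206 and 244 FPKM (difference 0.24, interval 0.17 to 0.31). Isoforms are not separated, so this value does not single out Arf, a product of *Cdkn2a*. On immunoblots the paper reported Arf protein in *Runx3*-restored but not in KPR- cells. Of the genes known to depend on menin and KMT2A, *Cdkn1b* had 25.4 and 32.3 FPKM (difference 0.34), *Cdkn2c* had 13.9 and 10.9 FPKM (difference -0.35), and *Meis1* had 0.271 and 0.0696 FPKM, from about 19 and 5 fragments. Transcript levels do not show the amount of H3K27 or H3K4 methylation at these genes, which was not measured.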

How the data were processed

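Poly(A) RNA of 1 KPR- and 1 KPRrestored library was sequenced as paired-end directional libraries. The authors trimmed the reads, mapped them using TopHat (mm10, per the labels) and deposited FPKM values estimated using Cufflinks. Their methods also name EdgeR, and whether its scaling entered the deposited FPKM is not stated. Versions and the annotation are not given in the sources used here. GENCODE M21 (GRCm38) gave lengths and positions for 22148 symbols directly and 666 through a synonym.

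Differences were log2(FPKM + 0.005), KPRrestored minus KPR-, called at 0.5, which understates changes of genes near the pseudocount. Depth and a mean fragment of 212 bases were fitted to 3768 genes of a single transcript length. Of values of 0.5 to 5.5 estimated fragments, 80.5% (KPR-) and 83.1% (KPRrestored) lay within 0.1 of a whole number, where chance gives 20%. Fragments used the longest transcript with a RefSeq counterpart (or the longest of all where none had one), for effective lengths of at least 100 bases, and are upper estimates. Clopper-Pearson 95% intervals of their ratio cover counting error only. With 1 library per group no p-value was computed. The intervals and the depth fit were tested on simulated libraries. Their counts were Poisson draws on the same transcript lengths used to recover them. Isoform length and variation between libraries were therefore not tested.

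All 38 genes are named. Values, difference and interval are given for called genes, *Ezh1*, *Ezh2*, *Bmi1*, *Rnf2*, *Kmt2a*, *Kmt2d* and the most abundant gene of each complex, and up to 2 highest and 2 lowest genes were named from other lists. Intervals of further genes and the gene-overlap notes were added after the values were seen. The genes and lists were chosen with earlier results of these data known. Backgrounds at a mean FPKM of at least 3 and at 27 CpG were chosen after seeing the data. Protein sequences were not used here. Of the further PRC1 genes, 1 is not reported here. Calculations ran in Python 3.11.15 with scipy 1.17.1, pandas 2.3.3 and numpy 2.4.6, and plots in matplotlib 3.10.9.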

Additional observations from a re-analysis of the deposited data

How the results depend on the processing

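No paired analysis was possible because each group is 1 library and the labels carry no shared replicate numbers, and for the same reason no replicate could be left out. Pseudocounts of 0.1 and 1, no filter or a filter at a mean FPKM of 5, TPM and upper quartile scaling, centring on the median gene, removal of the transcript length trend and a threshold of 1 were run. The count of lower members was 0 with a pseudocount of 1 and with a mean FPKM of at least 5, since *Phf19* has a mean of 3.90 FPKM. Of all genes tested in these settings, 6.78% and 7.32% were lower. With a threshold of 1, 0 members were higher and 0 lower, where 2.89% of all genes tested were higher and 1.38% lower. With the length trend removed, the MLL/COMPASS median was -0.080 in place of -0.23, while the PRC2 median was -0.30 and the PRC1 median 0.059. With the shortest coding transcript, 14 in place of 29 counting intervals excluded 0, and the like share of all genes is not given here. *Kdm6b* was called higher under every alternative except the threshold of 1. Removal of the length trend changed the sign of 7 members, *Mtf2*, *Pcgf3*, *Pcgf5*, *Cbx2*, *Phc3*, *Wdr5* and *Kdm6a*, of which *Phc3* at -0.13 was farthest from 0 before it, and scaling or centring did so for *Mtf2*, *Pcgf5* and *Wdr5*, each within 0.1 of 0. Of the counts over the other lists, 132 stayed within 1.5 times and 12 did not, among them *Lcor*, lost at a mean FPKM of at least 5, and *Kdm5b*. Depth is estimated, and isoforms are not separated.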
